A study of Mus musculus with 9 samples.

Results

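The comparison described here is that of colon tissue from mice with dextran sodium sulfate (DSS) colitis and from mice that drank water. Its members are the libraries whose label gives the control or the DSS treatment, 6 of the 9 in the series, with 3 mice and 1 library per mouse in each group (CON 1 to CON 3 and DSS 1 to DSS 3). All genes were compared, and they are described by cell compartment and pathway, from gene lists that cover the epithelium, the stroma, metabolism and the immune cells. The mice were C57BL/6J. The DSS mice drank 2.5% DSS for 7 days, the control mice drank distilled water, and mice of both groups were held in a frame for 30 minutes as a sham for the electroacupuncture (EA) of the third group, which enters the filter, the scaling and the estimate of spread but not the comparison. EA began after 5 days of modeling and lasted 5 days, and colons were taken after it. The sex and age of the mice, and the stretch of colon used, were not given in the sources used here.

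DSS is a sulfated sugar polymer that injures the lining of the colon when mice drink it, and it is used as a chemical model of ulcerative colitis in which the barrier is broken first and leukocytes follow. The lining of a healthy mouse colon consists of absorptive colonocytes, which take up salt, water and the butyrate made by bacteria, of goblet cells, which secrete the mucus layer, and of scarcer hormone-secreting and tuft cells, all renewed from stem cells at the crypt base. Beneath it lie fibroblasts, vessels, nerves, resident macrophages and antibody-secreting plasma cells, and outside these the smooth muscle.

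Full-length cDNA was sequenced on an Oxford Nanopore instrument, and values are given as CPM, the deposited read counts of each library scaled to the same total, after adjustment of the totals by the TMM method. The 6 libraries held between 2627695 and 4235576 counts. A gene is called higher or lower where its adjusted p-value (Benjamini-Hochberg, edgeR quasi-likelihood test) is under 0.05, and a fold difference against a group with 3 counts or fewer in every mouse is given as a lower bound. With 3 mice against 3, the smallest p that an exact permutation test can give is 0.1. Every p-value given therefore comes from the fit across all 12566 genes tested, or from one of its alternatives where a mouse is left out. It sets the difference against a spread within groups that is estimated with the EA mice included and with information shared across genes. In whole tissue, fewer cells of a type and less RNA per cell cannot be told apart.

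The control mice resembled each other more than the DSS mice did. Over the genes tested, Spearman's correlation of CPM between control mice was between 0.947 and 0.963, and between DSS mice it was between 0.859 and 0.912. DSS 1 lay nearest to the controls, with correlations of 0.775 to 0.784, against 0.662 to 0.694 for DSS 2 and 0.646 to 0.662 for DSS 3. In a principal component analysis of these 6 libraries, DSS 1 was at 46.5 on the first component (74.3% of the variance), DSS 2 at 88.9 and DSS 3 at 105.4, and the controls lay between -85.0 and -77.7. The markers of colon were present in the controls, from *Car1* and *Slc26a3* of absorptive cells to *Muc2* of goblet cells, whereas the stem cell gene *Lgr5* and the tuft cell genes *Trpm5* and *Pou2f3* were too low to be tested in any group.

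Red blood cell genes moved with the group. All 4 that were tested rose, among them the beta-globin gene *Hbb-bs*, with 44, 51.5 and 36.8 CPM in the control mice and 1761, 746 and 923 CPM in the DSS mice (log2 fold change 4.69 ± 0.36 (SE), adjusted p = 3.18e-05, edgeR). The summed level of the erythroid list was 113, 118 and 96.2 CPM in the controls and 3819, 1434 and 1860.3 CPM in the DSS mice, highest in DSS 1. Reads of the alpha- and beta-globin copies may have been divided between near-identical genes. The part of blood content in the results below was not tested.

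At the threshold used, 40.9% of all genes tested were called, 21.5% higher and 19.5% lower in the DSS mice, and the median log2 fold change of all genes was 0.02. Against that background the compartments moved in different directions. Of 227 epithelial genes tested (276 listed), 102 were lower and 38 higher, while of 181 stromal genes (225 listed) 116 were higher and 20 lower. The metabolic lists held 134 lower and 30 higher genes of 408 tested (430 listed), and the immune lists 125 higher and 42 lower of 225 tested (323 listed). Without CON 3 or DSS 2, only 87 or 86 metabolic genes were called lower, and without any 1 control mouse only 15 to 18 were called higher.

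**Figure D1:**
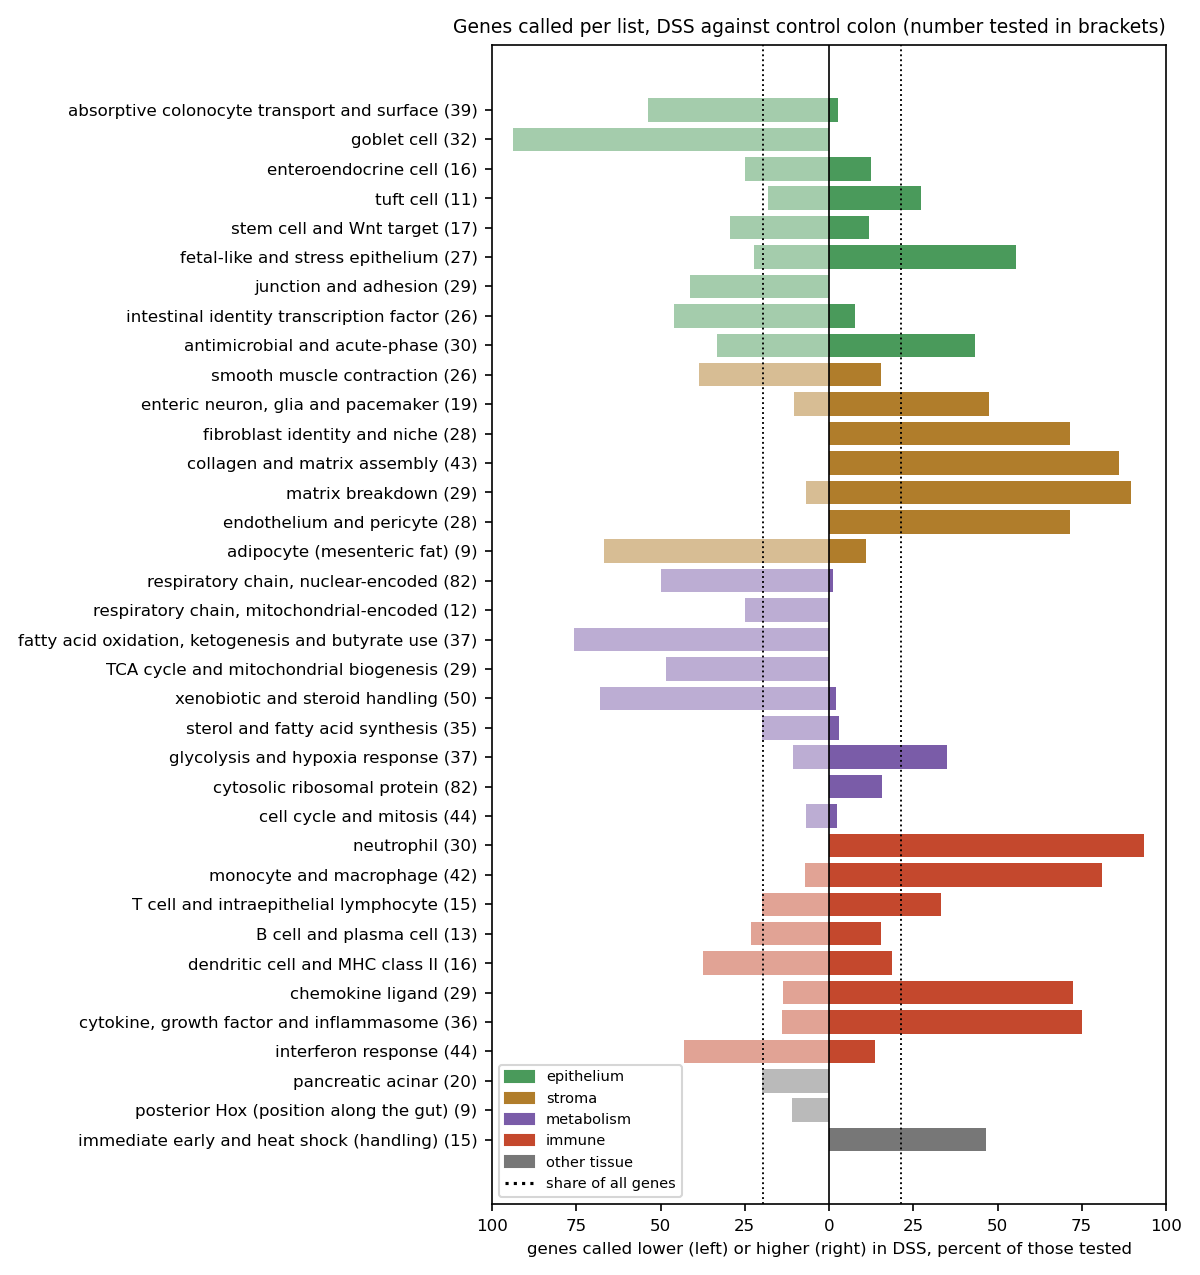
Share of the tested genes of each list called higher (right, dark) or lower (left, pale) in DSS than in control colon, in percent, for lists with 9 or more genes tested (number in brackets), with dotted lines at the shares of all genes, 21.5% and 19.5%. Goblet cell genes were lower in 93.8% of cases, and neutrophil genes were higher in 93.3%.

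**Figure D2:**
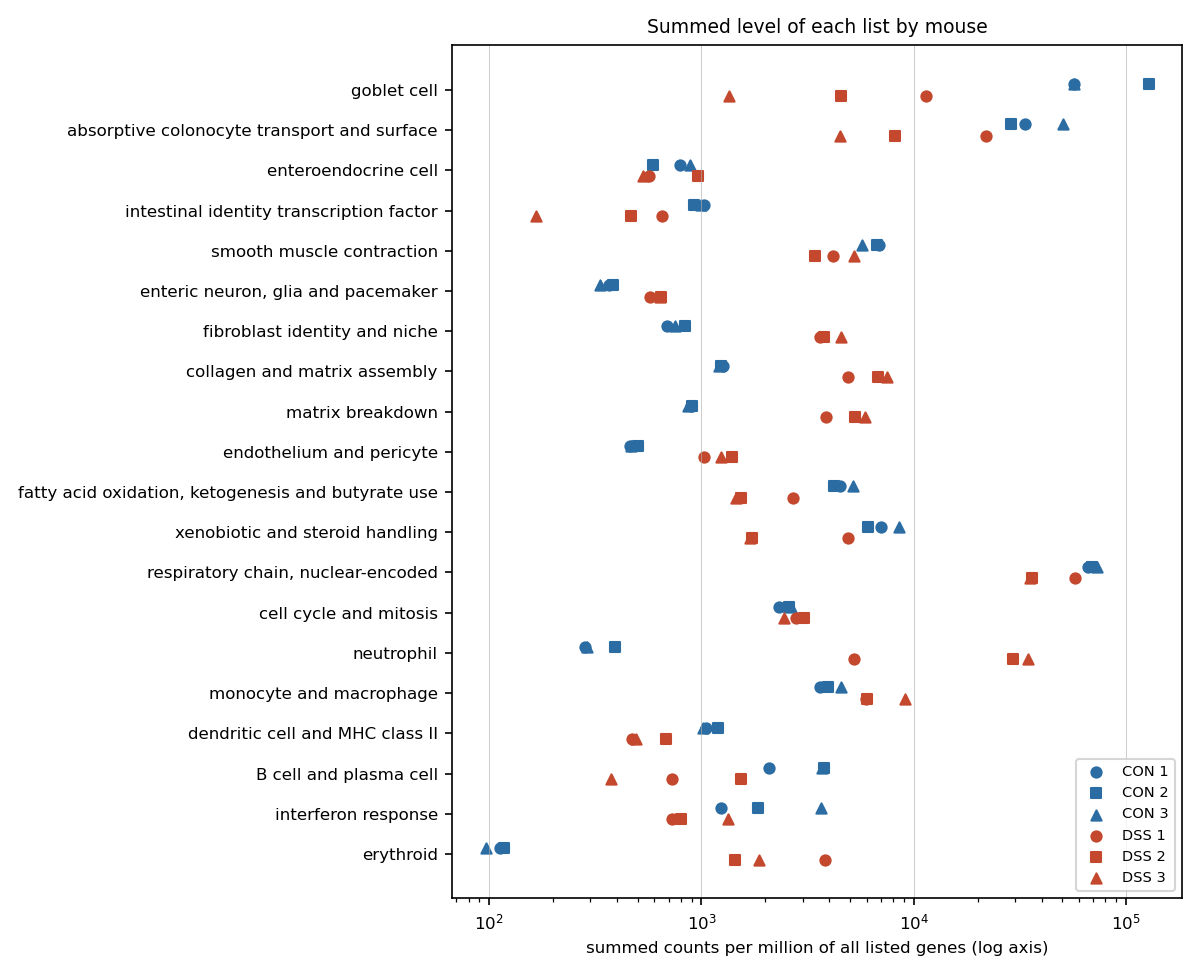
Summed CPM of all genes of 20 lists in each mouse, on a log axis, controls in blue and DSS mice in red, with circles, squares and triangles for mice 1, 2 and 3 of each group. The goblet cell and neutrophil sums of the groups lie far apart, the enteroendocrine and cell cycle sums overlap, and DSS 1 has the highest goblet cell sum and the lowest neutrophil sum of the DSS mice.

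Goblet cell genes had the lowest median of the epithelial lists. Of 32 goblet cell genes tested (34 listed), 30 fell and 0 rose, the median log2 fold change being -3.05, and 19 of them fell beyond a log2 fold change of 2.5 with a P under 0.01, a bound that 10.2% of all genes passed in either direction and 3.57% downward. The transcription factors that specify secretory cells, the mucus proteins and the antimicrobial proteins of this lineage fell together. The list took 56662, 128110.0 and 56801 CPM in the controls, 5.96%, 11.9% and 5.64% of the counts of each control library, and 11419, 4556 and 1349 CPM in the DSS mice, 1.11%, 0.495% and 0.134% of their counts, without overlap.

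*Mptx1*, a pentraxin made in the mouse gut (chr1:174330518-174332873 in GRCm38, as all positions here), was among the most counted genes of the controls. It stood at 20171, 58451 and 15277 CPM in the controls and at 5.15, 457 and 2.81 CPM in the DSS mice (log2 fold change -7.65 ± 1.88 (SE), adjusted p = 0.00969, edgeR). All DSS mice lay below all controls, although DSS 2 kept a level far above the other two. *Ang4*, an antibacterial ribonuclease (chr14:51763878-51773590), behaved in the same manner, with 4394, 16058 and 5339 CPM in the controls and 8.69, 126 and 1.87 CPM in the DSS mice (log2 fold change -7.55 ± 1.47 (SE), adjusted p = 0.00312, edgeR). *Clca1*, a secreted protease that processes mucus (chr3:145003817-145032776), fell from 3821 ± 2084 CPM (SD, n = 3) to 46.3 ± 45.8 CPM (SD, n = 3; adjusted p = 0.000754, edgeR).

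*Muc2*, the gel-forming mucin that makes up the colonic mucus (chr7:141690340-141754693), had 929.8, 885 and 776 CPM in the controls and 197, 60.4 and 8.11 CPM in the DSS mice (log2 fold change -3.29 ± 0.80 (SE), adjusted p = 0.0095, edgeR). The controls were close to each other, while the DSS mice ranged over more than an order of magnitude, with DSS 1 highest and DSS 3 lowest. Of the other mucus proteins, *Fcgbp*, which crosslinks mucin, was 25.4-fold lower, *Zg16*, a lectin that binds bacteria, 4.07-fold lower, and *Tff3*, a trefoil peptide of epithelial repair, 5.07-fold lower, with adjusted p-values of 0.00126, 0.00856 and 0.00792 (edgeR). The regulators fell too. *Atoh1*, the factor that commits progenitors to the secretory fate, had 0, 2 and 0 counts in the DSS mice, a level at least 42.2-fold lower than in the controls. Its downstream factor *Spdef* was 9.13-fold lower and *Foxa3* 10.9-fold lower (adjusted p = 0.000254 and 0.000103, edgeR).

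Some enzymes that build mucin sugars were among the genes the naming rule gave. *B3gnt6*, which makes the core 3 glycan of colonic mucin, had 14, 15.6 and 27.6 CPM in the controls and 1.29, 0.217 and 0.936 CPM in the DSS mice (log2 fold change -4.59 ± 0.52 (SE), adjusted p = 0.000195, edgeR). The sialyltransferases *St3gal4* and *St6galnac2*, which cap glycans with sialic acid, were 9.15-fold and 8.72-fold lower (adjusted p = 2.68e-05 and 3.06e-05, edgeR), with DSS mice at 30.6, 24.6 and 25.6 CPM and 3.22, 2.61 and 2.81 CPM. In *B3gnt6* all DSS mice lay below all controls, as they did in 25.9% of all genes tested. *St3gal4* and *St6galnac2* were named for their P, from genes whose groups do not overlap. Their separation was therefore set by the naming rule.

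Genes of absorptive colonocytes fell in part. Of 39 genes of transport and cell surface tested (41 listed), 21 fell and 1 rose, and the median log2 fold change was -1.66. The DSS mice differed among themselves here, and the count of lower genes was 34 without DSS 1 and 8 without DSS 2. The list summed to 33369, 28582 and 50493 CPM in the controls and 21888, 8158 and 4477 CPM in the DSS mice.

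*Car1*, a carbonic anhydrase of salt and acid transport (chr3:14766216-14808368), had 9712, 5243 and 21526 CPM in the controls and 2969, 783 and 638 CPM in the DSS mice (log2 fold change -3.05 ± 0.75 (SE), adjusted p = 0.00961, edgeR). The groups did not overlap, with CON 3 highest. *Aqp8*, a water channel, went from 469.6, 478 and 349 CPM to 102, 30.0 and 1.25 CPM (log2 fold change -3.28 ± 0.94 (SE), adjusted p = 0.0192, edgeR), and *Slc26a3*, the chloride and bicarbonate exchanger of the colon surface, was 5.35-fold lower (adjusted p = 0.0187, edgeR). *Guca2a*, the gut peptide guanylin, was 8.69-fold lower (adjusted p = 0.0133, edgeR). The calls of *Aqp8*, *Slc26a3* and *Guca2a* were lost when DSS 2 was left out. *Lypd8*, a surface protein that keeps flagellated bacteria away, was not called, with 6787, 6844 and 8709 CPM in the controls and 7279, 2583 and 1495 CPM in the DSS mice, where DSS 1 lay within the range of the controls. Without DSS 1 it was called lower (log2 fold change -1.89, adjusted p = 0.000306, edgeR). Brush border genes fell, among them *Vil1* (villin, 3.69-fold) and the protocadherin *Cdhr5* (4.95-fold), with adjusted p-values of 0.00432 and 0.00485 (edgeR).

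The single absorptive gene that rose was *Clca4b* (chr3:144910921-144932529), a member of the same gene family and the same stretch of chromosome as *Clca1*. It had 2.29, 0.997 and 4.22 CPM in the controls and 483, 259.6 and 87.4 CPM in the DSS mice (log2 fold change 6.80 ± 0.81 (SE), adjusted p = 0.000257, edgeR). Here DSS 1 was highest, and the 2 genes of one family went in opposite directions.

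The remaining epithelial lineages did not follow the goblet cells. Of 16 enteroendocrine genes tested (27 listed), 4 fell and 2 rose, 25% and 12.5%, where 19.5% and 21.5% of all genes did. The summed level was 789, 590.1 and 883 CPM in the controls and 568, 960.1 and 529 CPM in the DSS mice, with overlap. The granule proteins *Chga* and *Chgb* were not called, with log2 fold changes of -0.28 ± 0.42 and -0.01 ± 0.40 (SE), nor was the peptide hormone *Pyy* (0.67 ± 0.31) or *Tph1*, the enzyme of serotonin synthesis (-0.45 ± 0.45; -1.12 and adjusted p = 0.0497 without DSS 2, edgeR). *Nts*, which encodes neurotensin, fell from 27.7, 8.64 and 57.5 CPM to 1.29, 1.09 and 1.25 CPM (log2 fold change -4.66 ± 0.70 (SE), adjusted p = 0.000836, edgeR), below every control although the controls were spread widely. The prohormone convertase *Pcsk1*, the hormone secretin (*Sct*) and proglucagon (*Gcg*) also fell, and the granule chaperone *Scg5* and the factor *Isl1*, which neurons of the gut wall also use, rose. The calls of *Gcg* and *Isl1* were each lost in 4 of the 6 fits that leave out 1 mouse, and those without CON 1, CON 3, DSS 2 or DSS 3 called 1 gene higher.

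Of 11 tuft cell genes tested (22 listed), 3 rose and 2 fell, 27.3% and 18.2%, where 21.5% and 19.5% of all genes did. Those that rose were *Alox5ap*, *Alox5* and *Ptgs1*, enzymes or cofactors of leukotriene and prostaglandin synthesis, and *Alox5ap* and *Alox5* are also expressed by neutrophils and macrophages, whose lists rose as well. *Dclk1*, the defining marker that was measured, was not called (0.74 ± 0.45 on the log2 scale, SE), but was without DSS 1 (1.06, adjusted p = 0.0355, edgeR), when 7 tuft cell genes were higher. Of the tuft cell genes, 1 was lower without CON 1, DSS 2 or DSS 3. The call of *Alox5* was lost in 5 of the 6 fits that leave out 1 mouse. Of 17 stem cell and Wnt target genes tested (26 listed), 5 fell and 2 rose, 29.4% and 11.8%, where 19.5% and 21.5% of all genes did. Without DSS 1, 8 fell and 4 rose, without DSS 2, 8 fell and 1 rose, without DSS 3, 3 fell and 1 rose, and without CON 1, 3 fell and 2 rose. *Ascl2*, a regulator of crypt base stem cells, went from 11.4, 9.97 and 5.37 CPM to 0.965, 1.96 and 1.25 CPM (log2 fold change -2.62 ± 0.44 (SE), adjusted p = 0.00145, edgeR), whereas *Smoc2* was not called (1.23 ± 0.46; 1.47 and adjusted p = 0.0198 without DSS 1, edgeR). *Cd44*, a hyaluronan receptor that leukocytes carry too, was 5.51-fold higher (adjusted p = 0.0033, edgeR).

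The transcription factors that give the colon epithelium its identity were lower as a group. Of 26 tested (27 listed), 12 fell and 2 rose. One of those that rose was *Prdm1*, which plasma cells also use and whose call was lost in 4 of the 6 fits that leave out 1 mouse. No gene of the list was called higher without CON 1, CON 2 or DSS 2, and 1 was without CON 3. *Hnf4a*, a nuclear receptor that drives enterocyte genes, had 127, 132 and 112 CPM in the controls and 50.5, 20.4 and 8.74 CPM in the DSS mice (log2 fold change -2.22 ± 0.48 (SE), adjusted p = 0.00509, edgeR). Its close relative *Hnf4g* was at least 7.43-fold lower (adjusted p = 0.000764, edgeR). *Cdx2*, the homeobox factor of the hindgut, was 4.21-fold lower (adjusted p = 0.00611, edgeR). *Cdx1* was not called, at 61.8, 48.2 and 51 CPM in the controls and 52.1, 32.8 and 7.18 CPM in the DSS mice, where only DSS 3 stood clearly apart, and without DSS 1 it was called lower (log2 fold change -1.42, adjusted p = 0.0396, edgeR).

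Genes of junctions and adhesion, which all epithelial cells use, were lower in part. Of 29 genes of junctions, adhesion and keratins tested, 12 fell and 0 rose (20 fell without DSS 1). *Cldn15*, a claudin that forms sodium pores, was 11.4-fold lower (adjusted p = 0.000345, edgeR), *Cldn3* 3.75-fold and *Cldn7* 2.43-fold lower (adjusted p = 0.00289 and 0.0068, edgeR). *Epcam*, an adhesion molecule of all gut epithelium, had 295, 194 and 289 CPM in the controls and 151, 186 and 38.4 CPM in the DSS mice and was not called (adjusted p = 0.249, edgeR). E-cadherin (*Cdh1*), occludin (*Ocln*) and keratin 8 (*Krt8*) were not called either. In *Cdh1* DSS 1 lay above every control. Without DSS 1 all 3 were called lower, with log2 fold changes of -1.52, -2.04 and -1.81 (adjusted p = 0.000887, 0.000304 and 0.00262, edgeR).

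Genes of injured and fetal-like epithelium went both ways. Of 27 tested (38 listed), 15 rose and 6 fell, 55.6% and 22.2%, where 21.5% and 19.5% of all genes did. The median log2 fold change was 1.40. *Ly6a* (Sca-1), which marks regenerating colon epithelium and also vessels and lymphocytes, rose from 311, 409.9 and 420.0 CPM to 1385, 1138 and 1108 CPM (log2 fold change 1.67 ± 0.23 (SE), adjusted p = 0.000572, edgeR), and the groups did not overlap. *Anxa1*, an annexin that restrains inflammation, was 3.84-fold higher and *Clu*, which marks revival stem cells, 2.93-fold higher (adjusted p = 0.000334 and 0.00993, edgeR).

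The small proline-rich genes of the epidermal differentiation complex split by copy. *Sprr2a1* (chr3:92215799-92221911) was among the most counted genes of the controls and fell from 19057, 29235 and 20532 CPM to 6827, 6239 and 2744 CPM (log2 fold change -2.12 ± 0.37 (SE), adjusted p = 0.00163, edgeR). In the same cluster, *Sprr2d* (chr3:92339140-92340873) had 0, 0 and 0 counts in the controls and 8.69, 21.5 and 14.4 CPM in the DSS mice, a level at least 15.3-fold above the controls (adjusted p = 0.000234, edgeR). *Sprr2h* (chr3:92385685-92387324) was at least 57.7-fold higher (adjusted p = 0.000229, edgeR). Reads of the near-identical Sprr2a copies may have been divided among them, and opposite directions were seen between the a copies and the d and h copies.

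Antimicrobial and acute-phase genes formed the most divided epithelial list, with 13 higher and 10 lower of 30 tested (32 listed). The secreted acute-phase proteins rose. *Saa3*, a serum amyloid made in inflamed tissue (chr7:46711998-46715700), went from 7.37, 7.98 and 14.6 CPM in the controls to 7342, 13641 and 41620.2 CPM in the DSS mice (log2 fold change 11.04 ± 0.87 (SE), adjusted p = 3.33e-05, edgeR), and no gene had more counts in DSS 3. *Lcn2*, which binds the iron carriers of bacteria and is also stored in neutrophils, had 6.35, 2.66 and 6.90 CPM and 538, 2393 and 4825 CPM (log2 fold change 8.92 ± 0.89 (SE), adjusted p = 0.000109, edgeR). *Hp* (haptoglobin), *Slpi* (an antiprotease) and *Lbp* (the lipopolysaccharide-binding protein) were 243-fold, 48.1-fold and 21.8-fold higher, with adjusted p-values of 1.71e-05, 0.000107 and 6.62e-05 (edgeR).

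The C-type lectins *Reg3b* (chr6:78370657-78373466) and *Reg3g* (chr6:78466269-78468872), which kill bacteria at the epithelial surface, were decided by 1 mouse. *Reg3b* had 143, 33.2 and 1125 CPM in the controls and 13442, 92.6 and 25.9 CPM in the DSS mice, and *Reg3g* 60.0, 19.3 and 289 CPM and 4109, 24.3 and 6.87 CPM. DSS 1 was far above all other mice in both genes, while DSS 2 and DSS 3 lay within or below the range of the controls. Neither was called (adjusted p = 0.181 and 0.156, edgeR), and without DSS 1 the log2 fold change of *Reg3g* turned from 3.49 to -2.97 (adjusted p = 0.0453, edgeR).

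The gasdermin C genes fell as a cluster. *Gsdmc2* (chr15:63824346-63845177), *Gsdmc3* (chr15:63857724-63878558) and *Gsdmc4* (chr15:63891264-63912297) lie side by side on chromosome 15 and encode pore-forming proteins of the gut epithelium. *Gsdmc4* had 915, 2614 and 789 CPM in the controls and 24.1, 30.6 and 11.2 CPM in the DSS mice (log2 fold change -6.02 ± 0.60 (SE), adjusted p = 0.000109, edgeR), and *Gsdmc2* was 45.4-fold lower (adjusted p = 4.34e-05, edgeR). The copies are similar in sequence and reads may have been divided among them, although each fell. Chosen after their values were seen, the epithelial inflammasome sensor *Nlrp6* went from 72.2, 58.5 and 67.1 CPM to 10.3, 1.96 and 0.936 CPM (log2 fold change -3.94 ± 0.60 (SE), adjusted p = 0.000872, edgeR), and *Pigr*, the receptor that carries IgA across the epithelium, from 973, 1124 and 778 CPM to 496, 137 and 60.5 CPM (log2 fold change -2.05 ± 0.60 (SE), adjusted p = 0.0215, edgeR).

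**Figure D3:**
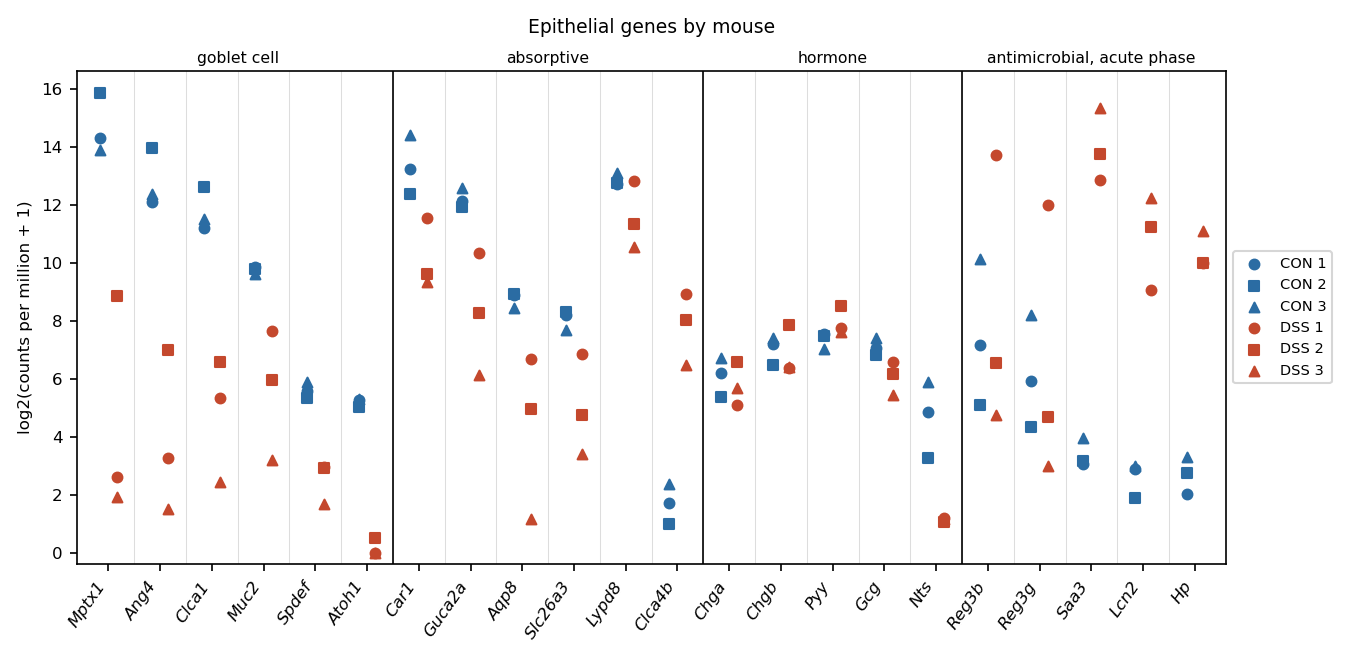
log2(CPM + 1) of 22 epithelial genes in each mouse, controls in blue and DSS mice in red, with circles, squares and triangles for mice 1, 2 and 3 of each group. The DSS mice lie below the controls in all 6 goblet cell genes, overlap with them in *Chga* and *Chgb*, and DSS 1 stands alone in *Reg3b* and *Reg3g*.

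The connective tissue of the colon moved the other way. Of 28 genes of fibroblast identity and niche tested (38 listed), 20 rose and 0 fell, and the median log2 fold change was 1.74, and of 43 genes of collagen and matrix assembly tested (48 listed), 37 rose and 0 fell, with a median of 2.18. The matrix list summed to 1267, 1241 and 1209.8 CPM in the controls and 4909, 6760.3 and 7508 CPM in the DSS mice, so the controls were nearly equal and DSS 1 was lowest of the DSS mice. CPM is relative to the scaled total of a library, in which the goblet cell genes took the shares given above. The part of that difference in the stromal values was not tested. Without DSS 1, 1 gene of each of these 2 lists was called lower.

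*Dcn* (decorin, a proteoglycan that binds collagen) had 255, 305 and 294 CPM in the controls and 2173, 2253 and 2895 CPM in the DSS mice (log2 fold change 3.10 ± 0.20 (SE), adjusted p = 1.61e-05, edgeR). *Pdgfra*, the growth factor receptor that marks gut fibroblasts, rose from 17.3 ± 3.55 CPM (SD, n = 3) to 83 ± 10.8 CPM (SD, n = 3; adjusted p = 8.64e-05, edgeR). Factors that fibroblasts send to the crypt rose too. *Grem1*, a BMP antagonist, and *Rspo3*, which strengthens Wnt signals, were 16-fold and 6.37-fold higher (adjusted p = 0.000142 and 0.00494, edgeR), and DSS 2 was highest in both.

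Fibrillar collagens rose by similar amounts. *Col3a1* had 354, 374 and 394 CPM in the controls and 1306, 1969 and 3174 CPM in the DSS mice (log2 fold change 2.52 ± 0.30 (SE), adjusted p = 0.00027, edgeR), and *Col1a1* and *Col1a2* were 4.32-fold and 4.94-fold higher (adjusted p = 0.0002 and 3.18e-05, edgeR). The smallest P in the list was that of *Col18a1*, a basement membrane collagen, from 16.8, 22.6 and 19.9 CPM to 317, 291 and 206 CPM (log2 fold change 3.78 ± 0.25 (SE), adjusted p = 1.57e-05, edgeR), and here DSS 1 was highest. *Sparc*, a protein that assists collagen assembly, differed little within the groups, at 156, 158 and 154 CPM and 851, 869 and 902 CPM (log2 fold change 2.49 ± 0.17 (SE), adjusted p = 1.83e-05, edgeR).

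Enzymes that degrade matrix rose alongside the matrix itself. Of 29 tested (36 listed), 26 rose and 2 fell, the membrane-anchored *Mmp15* and the hyaluronidase *Hyal2*, and the median log2 fold change was 3.32. *Mmp10* (stromelysin 2) had 1.27, 2.33 and 2.30 CPM in the controls and 200.1, 229 and 112 CPM in the DSS mice (log2 fold change 6.53 ± 0.40 (SE), adjusted p = 1.21e-05, edgeR), and the collagenase *Mmp13* 1.27, 1.99 and 4.22 CPM and 108, 188 and 118 CPM (log2 fold change 5.84 ± 0.44 (SE), adjusted p = 3.06e-05, edgeR). Both were low in every control. *Mmp2*, a gelatinase already present in the controls, was 9.99-fold higher, and *Ctsk*, a collagen-degrading cathepsin, 14.2-fold higher (adjusted p = 6.96e-06 and 2.52e-05, edgeR). *Timp3*, which inhibits metalloproteinases, rose with them, from 69.6, 76.8 and 65.1 CPM in the controls to 202, 304 and 278 CPM in the DSS mice (log2 fold change 1.89 ± 0.19 (SE), adjusted p = 0.000121, edgeR).

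Vessel genes rose as well. Of 28 endothelial and pericyte genes tested (34 listed), 20 rose and 0 fell, and the median log2 fold change was 1.72. *Pecam1*, which marks all endothelium, had 17.8, 19.9 and 14.9 CPM in the controls and 48.6, 58.7 and 59.3 CPM in the DSS mice (log2 fold change 1.66 ± 0.19 (SE), adjusted p = 0.000237, edgeR). The adhesion molecules *Vcam1* and *Icam1*, which leukocytes bind on vessels, were 11.5-fold and 26.7-fold higher (adjusted p = 2.9e-05 and 7.34e-05, edgeR), and *Selp* (P-selectin) was at least 56.9-fold higher (adjusted p = 0.000184, edgeR). *Lyve1* of lymphatic vessels was 4.24-fold higher (adjusted p = 0.000448, edgeR), and macrophages can carry it too.

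The muscle wall and its nerves gave an uneven picture. Of 26 genes of smooth muscle contraction tested (29 listed), 10 fell and 4 rose, 38.5% and 15.4%, where 19.5% and 21.5% of all genes did. The sums were 6830.3, 6686 and 5736 CPM in the controls and 4179.9, 3441 and 5244 CPM in the DSS mice, without overlap. *Des* (desmin, the intermediate filament of muscle) had 316, 286 and 259 CPM and 59.8, 96.7 and 126 CPM (log2 fold change -1.61 ± 0.26 (SE), adjusted p = 0.0012, edgeR), and *Cnn1* (calponin), *Smtn* (smoothelin) and *Myh11* (smooth muscle myosin) were 3.54-fold, 2.84-fold and 2.02-fold lower, with adjusted p-values of 0.000804, 0.000396 and 0.00306 (edgeR). *Acta2*, the actin shared by muscle and activated fibroblasts, was not called and overlapped between the groups, at 567, 603 and 507 CPM and 473, 307 and 665 CPM. The 4 that rose were *Hspb8*, *Cald1*, *Csrp1* and *Flna*, genes that non-muscle cells use too.

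Of 19 genes of enteric neurons, glia and pacemaker cells tested (27 listed), 9 rose and 2 fell (5 rose without CON 2). The 2 that fell both mark the interstitial cells of Cajal, which pace gut contractions. *Ano1*, their chloride channel, had 42.2, 36.6 and 30.7 CPM in the controls and 11.3, 11.3 and 6.24 CPM in the DSS mice (log2 fold change -1.92 ± 0.26 (SE), adjusted p = 0.000489, edgeR), and *Kit*, their receptor tyrosine kinase, 20.1, 21.6 and 31.4 CPM and 6.76, 5.87 and 6.55 CPM (log2 fold change -1.92 ± 0.33 (SE), adjusted p = 0.00151, edgeR). The neuropeptide genes *Vip* and *Tac1* (substance P) rose 3.67-fold and 3.46-fold (adjusted p = 0.000821 and 0.000244, edgeR). The glial gene *Gfap* rose 4.54-fold (adjusted p = 0.00402, edgeR), while the glial marker *S100b* and the neuronal marker *Elavl4* were not called (-0.26 ± 0.42 and 0.08 ± 0.44 on the log2 scale, SE). The defining neuronal gene *Ret* was too low to be tested.

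Fat cell genes, which in a colon sample come with attached mesentery, fell in 6 of 9 cases tested (14 listed; 3 without CON 2). *Car3*, a carbonic anhydrase of fat and muscle, had 24.4, 141 and 107 CPM in the controls and 1.61, 5.00 and 7.18 CPM in the DSS mice (log2 fold change -4.28 ± 0.65 (SE), adjusted p = 0.000894, edgeR). *Adipoq* (adiponectin) had 3.05, 25.3 and 16.5 CPM and 0.643, 0.652 and 4.06 CPM, so that the groups overlapped, and its call was lost without CON 2 or DSS 2. *Pck1*, an enzyme of glucose synthesis that fat cells also use, was on this list and was 31.3-fold lower (adjusted p = 0.000142, edgeR). How much mesentery each sample carried was not given in the sources used here.

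Genes of mitochondrial fuel use fell. Of 37 genes of fatty acid oxidation, ketogenesis and butyrate use tested (39 listed), 28 fell and 0 rose, and the median log2 fold change was -1.35. Butyrate from bacteria is the main fuel of colonocytes, and its oxidation runs through these enzymes. *Cpt2*, which brings fatty acids into the mitochondrial matrix (chr4:107903981-107923610), had 58.2, 49.2 and 56.7 CPM in the controls and 16.4, 8.91 and 9.99 CPM in the DSS mice (log2 fold change -2.22 ± 0.25 (SE), adjusted p = 0.0002, edgeR). *Eci1*, an isomerase of the pathway, was 3.84-fold lower and *Oxct1*, which uses ketone bodies, 3.42-fold lower, with adjusted p-values of 0.000284 and 0.000472 (edgeR). *Cpt1a*, the gate of the same route, was not called (-0.64 ± 0.38 on the log2 scale, SE), but fell without DSS 1 (-1.25, adjusted p = 0.00489, edgeR), when 1 gene of the list also rose. The list summed to 4496, 4228 and 5152 CPM in the controls and 2696, 1533 and 1453 CPM in the DSS mice, without overlap.

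The respiratory chain moved less per gene but broadly. Of 82 nuclear-encoded subunits tested (86 listed), 41 fell and 1 rose, *Ndufa4l2*, and the median log2 fold change was -0.69. *Ndufa4l2* lost its call without CON 1 or CON 3. The count of lower subunits was 69 without DSS 1 and between 19 and 22 without CON 2, CON 3, DSS 2 or DSS 3. *Ndufb2* of complex I had 345, 354 and 361 CPM in the controls and 186, 157 and 119 CPM in the DSS mice (log2 fold change -1.20 ± 0.19 (SE), adjusted p = 0.00117, edgeR), and *Atp5d* of the ATP synthase was 2.15-fold lower (adjusted p = 0.00186, edgeR). *Cox7a1*, the muscle form of a cytochrome oxidase subunit, fell far more than its complex, from 170.0, 165 and 185 CPM to 28.6, 13 and 5.93 CPM (log2 fold change -3.45 ± 0.46 (SE), adjusted p = 0.000439, edgeR). Of 12 subunits encoded in the mitochondrial genome (13 listed), 3 fell, *mt-Nd3*, *mt-Cytb* and *mt-Co3*, which is 25% where 19.5% of all genes fell. This count was 0 without CON 1 or DSS 3 and 1 without CON 3 or DSS 2. Their summed level overlapped between the groups.

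Genes that build mitochondria and run the citric acid cycle fell in 14 of 29 cases and rose in none (22 fell without DSS 1, and 8 or 9 without CON 2, CON 3, DSS 2 or DSS 3). *Ppargc1a* (PGC-1alpha), the coactivator of mitochondrial biogenesis, had 7.37, 7.98 and 7.66 CPM in the controls and 1.93, 1.52 and 0.936 CPM in the DSS mice (log2 fold change -2.36 ± 0.49 (SE), adjusted p = 0.00438, edgeR), and its relative *Ppargc1b* was 3.74-fold lower (adjusted p = 0.00174, edgeR). The cycle enzyme *Fh1* (fumarase) was 2.26-fold lower (adjusted p = 0.0038, edgeR), whereas *Cs* (citrate synthase) was not called (-0.35 ± 0.30 on the log2 scale, SE), except without DSS 1 (-0.84, adjusted p = 0.005, edgeR).

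Drug and steroid handling was the metabolic list with the lowest median, -1.99. Of 50 genes tested (60 listed), 34 fell and 1 rose, the glutathione transferase *Mgst1*, and 15 of the 34 fell beyond a log2 fold change of 2.5 with a P under 0.01. *Cyp2c55*, a cytochrome P450 of the colon (chr19:39007019-39042693), had 1022, 639 and 2194 CPM in the controls and 92.3, 15.2 and 6.55 CPM in the DSS mice (log2 fold change -5.08 ± 1.12 (SE), adjusted p = 0.00568, edgeR). *Gstm3*, a glutathione transferase, had 43.2, 43.2 and 46.8 CPM and 2.90, 3.48 and 0.936 CPM (log2 fold change -4.13 ± 0.40 (SE), adjusted p = 9.28e-05, edgeR). *Ugt2b5*, a glucuronosyltransferase, was at least 37.4-fold lower (adjusted p = 0.000497, edgeR), and *Nr1i2* (PXR), the nuclear receptor that controls such genes, 4.65-fold lower (adjusted p = 0.00477, edgeR). *Mgst1* lost its call without any 1 control mouse. The carboxylesterase *Ces1g* was not called (0.24 ± 0.49 on the log2 scale, SE).

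Glycolysis divided. Of 37 genes of glycolysis and the hypoxia response tested (39 listed), 13 rose and 4 fell (9 fell without DSS 1), and the median log2 fold change was 0.21. The shares were 35.1% and 10.8%, where 21.5% and 19.5% of all genes rose and fell. *Pfkfb3*, which makes the activator of phosphofructokinase and is induced in inflammatory cells, rose from 1.02, 1.66 and 0.766 CPM to 9.33, 25.4 and 33.7 CPM (log2 fold change 4.27 ± 0.53 (SE), adjusted p = 0.000321, edgeR), while *Pfkl*, the liver form of phosphofructokinase, fell 3.35-fold (adjusted p = 0.000842, edgeR). *Pkm* (pyruvate kinase) had 960.3, 971 and 1009.8 CPM and 2388, 2519.5 and 2693 CPM (log2 fold change 1.37 ± 0.17 (SE), adjusted p = 0.000302, edgeR). *Hk2* (hexokinase), *Ldha* (lactate dehydrogenase) and *Slc2a1* (the glucose transporter GLUT1) were not called, and in *Ldha* DSS 1 lay above the controls. *Slc2a1* was called higher without DSS 3 (log2 fold change 0.87, adjusted p = 0.0118, edgeR). *Gapdh*, often used as a reference gene, was 1.66-fold higher (adjusted p = 0.0115, edgeR), a call lost without CON 1.

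Of 44 genes of the cell cycle tested (45 listed), 1 rose and 3 fell, and the median log2 fold change was 0.11, where 40.9% of all genes were called. None rose when any 1 control mouse or DSS 2 was left out, and 1 fell without CON 2. The proliferation markers *Mki67*, *Top2a* and *Cdk1* were not called, with log2 fold changes of 0.88 ± 0.48, -0.08 ± 0.22 and -0.25 ± 0.25 (SE). *Mki67* was 24.4, 89.3 and 21.8 CPM in the DSS mice, highest in DSS 2. Of 82 cytosolic ribosomal protein genes tested (85 listed), 13 rose and 0 fell (3, 3 and 5 rose without CON 1, CON 2 and CON 3, and 2 fell without DSS 1). The share that rose, 15.9%, was below the 21.5% of all genes, and these genes rose by less than 1 on the log2 scale except *Rpl24*. The many processed copies of ribosomal protein genes make the division of reads uncertain. Sterol and fatty acid synthesis, with 7 lower and 1 higher of 35, had about the share of lower genes that all genes had, 19.5% (2 or 3 fell without CON 2, CON 3, DSS 2 or DSS 3, and 13 without DSS 1).

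**Figure D4:**
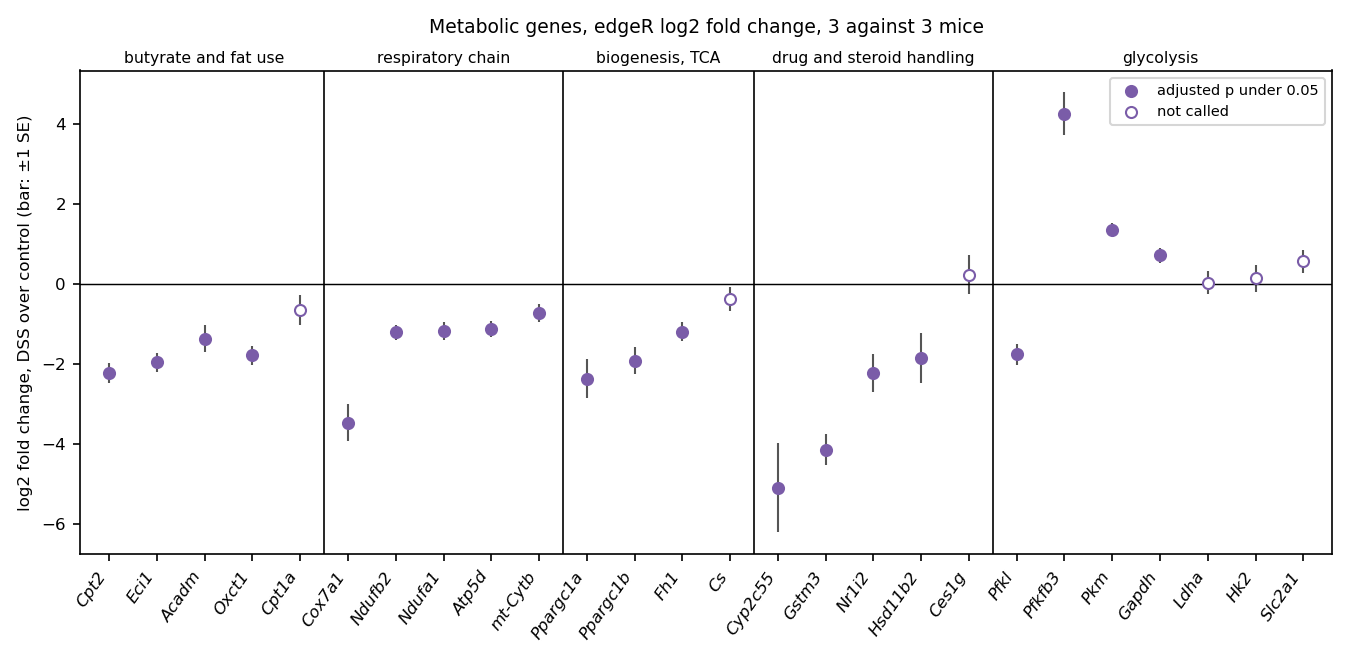
edgeR log2 fold change (DSS over control, 3 mice each) of 26 metabolic genes by pathway, with bars of 1 SE. Filled points passed an adjusted p of 0.05 and open points did not. Most genes of mitochondrial fuel use and drug handling lie below 0, and genes of glycolysis lie on both sides, with *Pfkfb3* at 4.27.

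Neutrophil genes had the highest median of the immune lists. Of 30 neutrophil genes tested (31 listed), 28 rose and 0 fell, all 28 of them beyond a log2 fold change of 2.5 with a P under 0.01, where 6.62% of all genes passed that bound upward. The fitted median log2 fold change was 8.86, and it was 6.52 with the 18 genes that were at the counting floor in the controls set to their lower bound. The list summed to 283, 391 and 289 CPM in the controls and 5213, 29456 and 34508 CPM in the DSS mice. Even DSS 1, the lowest, was far above every control.

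*S100a8* and *S100a9*, which form calprotectin, the zinc-binding protein that fills neutrophil cytosol, are neighbours on chromosome 3 (chr3:90668978-90670035 and chr3:90692632-90695721). *S100a9* had 0, 2 and 1 counts in the controls and 401, 5203 and 4002 CPM in the DSS mice, a level at least 3302-fold above that of the controls (adjusted p = 0.0001, edgeR). *Ngp*, a granule protein of maturing neutrophils, was at least 744-fold higher (adjusted p = 0.000187, edgeR), and the secreted peptide *Retnlg* had 3.81, 5.98 and 5.37 CPM and 109.7, 643 and 1459 CPM (log2 fold change 7.19 ± 0.88 (SE), adjusted p = 0.0003, edgeR). *Cxcr2*, the receptor that draws neutrophils to chemokines, had 2, 81 and 102 counts in the DSS mice, and DSS 1 stayed at the counting floor. It was at least 17.2-fold higher (adjusted p = 0.00432, edgeR). The stefin A genes of the list are near-identical copies whose reads may have been divided.

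Macrophage genes rose in most cases, but not all. Of 42 monocyte and macrophage genes tested (45 listed), 34 rose and 3 fell, and the median log2 fold change was 2.85. *Chil3*, a chitinase-like protein of monocytes and activated macrophages, had 3, 0 and 2 counts in the controls and 131, 854 and 1785 CPM in the DSS mice, a level at least 952-fold above that of the controls (adjusted p = 0.000149, edgeR). *Msr1*, a scavenger receptor, and *Cd68*, a lysosomal protein of phagocytes, were 45-fold and 10.9-fold higher (adjusted p = 0.00019 and 0.000311, edgeR). The complement gene *C1qc* and the mannose receptor *Mrc1*, both expressed by resident macrophages, were 4.97-fold and 7.61-fold higher (adjusted p = 3.33e-05 and 0.000171, edgeR).

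The 3 that fell were *Cx3cr1*, *Retnla* and *Lgals3*. *Cx3cr1*, the fractalkine receptor of resident gut macrophages, had 4.07, 3.66 and 5.37 CPM in the controls and 0.643, 1.52 and 0.312 CPM in the DSS mice (log2 fold change -2.24 ± 0.56 (SE), adjusted p = 0.011, edgeR), and its ligand *Cx3cl1* fell 3.53-fold (adjusted p = 0.00533, edgeR). *Retnla*, a product of alternatively activated macrophages, had 25.2, 74.1 and 47.9 CPM and 0.322, 1.52 and 4.37 CPM (log2 fold change -4.56 ± 0.73 (SE), adjusted p = 0.00112, edgeR). *Lgals3* is also a gene of colonocytes and was 2.34-fold lower (adjusted p = 0.00935, edgeR). *Adgre1* (F4/80), a general macrophage marker, was not called, at 5.34, 10.6 and 14.2 CPM and 10.9, 13.7 and 64.6 CPM, and only DSS 3 stood above the controls. It was called higher without DSS 1 (log2 fold change 1.95, adjusted p = 0.0213, edgeR) and without DSS 2 (1.96, adjusted p = 0.0449, edgeR). Chosen after its values were seen, *Arg1* (arginase 1), another product of alternatively activated macrophages, went the opposite way to *Retnla*, from 1.02, 3.32 and 3.83 CPM to 26.1, 53.7 and 267 CPM (log2 fold change 5.45 ± 0.90 (SE), adjusted p = 0.00134, edgeR).

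The MHC class II genes and the costimulatory receptors named here moved in opposite directions. Of 16 dendritic cell and MHC class II genes tested (25 listed), 6 fell and 3 rose, 37.5% and 18.75%, where 19.5% and 21.5% of all genes did. The class II chain *H2-Ab1* had 311, 332 and 318 CPM in the controls and 101, 142 and 85.5 CPM in the DSS mice (log2 fold change -1.55 ± 0.26 (SE), adjusted p = 0.00132, edgeR). *H2-Aa*, *H2-Eb1* and the invariant chain *Cd74* were 1.80-fold, 2.90-fold and 2.15-fold lower, with adjusted p-values of 0.00622, 0.00245 and 0.00861 (edgeR). *Ciita*, the master regulator of these genes, was 2.70-fold lower at low counts (adjusted p = 0.0471, edgeR), a call that held in only 1 of the 6 fits that leave out 1 mouse. The costimulatory receptors *Cd86* and *Cd40*, which activated macrophages and dendritic cells display, rose 13.7-fold and 4.30-fold (adjusted p = 0.00154 and 0.00402, edgeR). Colonocytes can express class II genes too, so the cells these reads came from were not given by the data.

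Lymphocyte genes were scarce. Only 15 of 44 listed T cell and intraepithelial lymphocyte genes could be tested, and 5 rose and 3 fell, 33.3% and 20%, where 21.5% and 19.5% of all genes did. *Ctla4* and *Icos*, receptors of activated and regulatory T cells, rose, *Ctla4* at least 7.32-fold and *Icos* 3.67-fold (adjusted p = 0.00164 and 0.00402, edgeR). *Xcl1*, *Cd7* and *Nkg7*, which intraepithelial and cytotoxic lymphocytes express, fell, and *Xcl1* had 9, 7 and 8 counts in the controls and 1, 0 and 0 in the DSS mice. *Ccl5* and *Jaml*, other members of this list, went the other way and were called higher in all 6 fits that leave out 1 mouse. Their log2 fold changes in those fits were 2.48 to 3.16 and 1.21 to 1.92. *Nkg7* lost its call without CON 3 or DSS 1. *Cd3d*, *Cd4* and *Gzma* were not called, but *Cd3d* was higher without DSS 1 (log2 fold change 1.21, adjusted p = 0.0217, edgeR). Of 23 genes of eosinophils, basophils and mast cells only 3 could be tested, and 1 rose.

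Of 13 B cell and plasma cell genes tested (33 listed), 3 fell, near the 19.5% of all genes, and 2 rose. *Jchain*, which joins the units of IgA, had 1399, 2718 and 1847 CPM in the controls and 386, 374 and 120.2 CPM in the DSS mice (log2 fold change -2.76 ± 0.46 (SE), adjusted p = 0.00139, edgeR), without overlap. *Tnfrsf17* (BCMA), the survival receptor of plasma cells, had 29, 33 and 21 counts in the controls and 1, 1 and 0 in the DSS mice, at least 10.3-fold lower (adjusted p = 0.0002, edgeR), and *Derl3*, a gene of secretory cells, was 7.80-fold lower (adjusted p = 0.00145, edgeR). These were the 3 that fell, and 5 fell without CON 3 and 7 without DSS 2. *Mzb1*, a chaperone of antibody secretion, was not called (log2 fold change -1.27 ± 0.50, SE), except without DSS 2 (-2.19, adjusted p = 0.00441, edgeR). The 2 that rose, *Sdc1* and *Prdm1*, are used by epithelium and macrophages as well, and 1 of them rose when any 1 control mouse or DSS 2 was left out. The B cell genes *Cd79a* and *Ms4a1* were not called, although *Ms4a1* was lower without CON 3 (log2 fold change -3.37, adjusted p = 0.0200, edgeR), and most immunoglobulin constant genes were not analysed here.

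Chemokines, which draw leukocytes into a tissue, mostly rose. Of 29 ligands tested (36 listed), 21 rose and 4 fell, and the median log2 fold change was 2.84. *Ccl2* and *Ccl7*, which attract monocytes, were 208-fold and 67.4-fold higher (adjusted p = 4.73e-05 and 0.000401, edgeR), and *Ccl2* was 122, 523 and 371 CPM in the DSS mice against 1.02, 2.33 and 1.53 CPM in the controls. *Cxcl2*, a neutrophil attractant, had 0, 2 and 0 counts in the controls and 205, 982 and 1026 CPM in the DSS mice, a level at least 761-fold above that of the controls (adjusted p = 0.000103, edgeR). The ligands that fell were *Xcl1*, *Cx3cl1*, *Ccl6* and *Ccl28*, an epithelial chemokine that draws IgA plasma cells. *Cxcl9*, induced by interferon gamma, was not called, except without DSS 1 (log2 fold change 2.76, adjusted p = 0.0209, edgeR), while the related *Cxcl10* was 22.1-fold higher (adjusted p = 0.00145, edgeR).

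Promoters of the genes that rose together were read for the letters of an NF-kB site, the element bound by the factor that switches on inflammatory genes. The letters GGGA, then any base, then TTTCC were searched on both strands in RefSeq windows from 250 bases before to 50 after each start (GRCm38.p6), and 126 of 27025 genes (0.466%) hold it. Of the 21 chemokines that rose, 14 have a window, and 3 of them hold the letters, *Cxcl1*, *Cxcl2* and *Cxcl3*, at 71, 97 and 73 bases before the start. These are neighbouring copies on chromosome 5 with similar sequences, so they are not 3 independent cases, and reads may have been divided among them. Of the 27 cytokine genes that rose, 24 have a window and 3 hold the letters, *Il6*, *Nfkbia* and *Csf1*. Over all tested members with a window, called or not, 3 of 22 chemokines and 4 of 30 cytokine genes hold them. These shares are 13.6% and 13.3%, beside 21.4% and 12.5% of the members that rose. Of the other lists, 1 gene that rose held them among 8 of stressed epithelium, 11 of vessels and 4 of the interferon response, and none did among 23 neutrophil, 24 macrophage, 25 collagen and 19 matrix breakdown genes that rose. They were also in 1 of 25 drug handling genes that fell. The letters CAAAGTCCA of a site of HNF4 factors, in 150 of 27025 genes (0.555%), were found in 2 of 25 genes of drug handling that fell and in none of 17 absorptive, 15 goblet cell, 23 fatty acid oxidation and 35 respiratory chain genes that fell. Of 24 macrophage genes that rose, 1 held these letters too. A match describes the letters only, and no match says only that these letters are not in the window. The 250 bases before the start of *Cxcl1* (chr5:90890995-90891244, plus strand) and of *Il6* (chr5:30012864-30013113, plus strand) are shown as one example from each list, with the motif in capitals.
Cxcl1: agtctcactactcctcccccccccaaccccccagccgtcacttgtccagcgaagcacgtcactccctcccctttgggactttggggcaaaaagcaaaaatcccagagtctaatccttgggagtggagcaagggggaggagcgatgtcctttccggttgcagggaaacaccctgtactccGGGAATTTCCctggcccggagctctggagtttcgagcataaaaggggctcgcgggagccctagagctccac
Il6: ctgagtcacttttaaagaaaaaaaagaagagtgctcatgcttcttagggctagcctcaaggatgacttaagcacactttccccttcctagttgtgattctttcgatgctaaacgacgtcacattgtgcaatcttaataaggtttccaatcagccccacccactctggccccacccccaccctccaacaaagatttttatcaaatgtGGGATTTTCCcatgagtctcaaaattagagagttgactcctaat

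Most cytokine and inflammasome genes rose, and a few fell. Of 36 genes tested (46 listed), 27 rose and 5 fell (3 fell without DSS 2), and the median log2 fold change was 3.34 (3.20 with 9 genes at their bound). *Il6*, a cytokine of the acute-phase response whose promoter is printed above, had 0, 1 and 1 counts in the controls and 29.9, 55.4 and 34 CPM in the DSS mice, a level at least 41-fold above that of the controls (adjusted p = 3.19e-05, edgeR). *Il1b* had 1.02, 1.33 and 3.07 CPM and 36.7, 151 and 269.6 CPM (log2 fold change 6.44 ± 0.95 (SE), adjusted p = 0.000724, edgeR), with DSS 3 highest and DSS 1 lowest of the DSS mice. *Osm* (oncostatin M) had 0, 0 and 0 counts in the controls and was at least 20.3-fold higher, and its receptor *Osmr*, carried by stromal cells, was 9.23-fold higher (adjusted p = 0.0017 and 0.000114, edgeR).

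*Tnf* was 9.96-fold higher, and *Nfkbia*, the inhibitor that NF-kB itself induces, 11-fold higher (adjusted p = 0.0029 and 3.33e-05, edgeR). *Ptgs2* (COX-2) and *Ptges*, which make prostaglandin E2 in sequence, were 15.2-fold and 18.5-fold higher (adjusted p = 0.000676 and 5.11e-05, edgeR). Of those that fell, *Casp1*, the protease that cleaves pro-interleukin 1, had 67.9, 92.4 and 97 CPM in the controls and 44.7, 25.2 and 27.2 CPM in the DSS mice (log2 fold change -1.41 ± 0.25 (SE), adjusted p = 0.00202, edgeR). *Pycard*, the inflammasome adaptor ASC, was 2.10-fold lower and *Il15*, a cytokine that sustains intraepithelial lymphocytes, 7.37-fold lower (adjusted p = 0.00721 and 0.000556, edgeR).

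Interferon-induced genes were lower on the whole, and the median log2 fold change was -0.98, and a small set rose. Of 44 tested, 19 fell and 6 rose, 43.2% and 13.6%, where 19.5% and 21.5% of all genes did. Without CON 3, 10 fell, and without DSS 2, 8 fell. Without any 1 control mouse, 2 or 3 rose, and without DSS 3, 2 rose. *Irf7*, the factor that amplifies type I interferon, had 153, 151 and 489.8 CPM in the controls and 26.7, 16.3 and 24.3 CPM in the DSS mice (log2 fold change -3.56 ± 0.48 (SE), adjusted p = 0.000461, edgeR). *Isg15*, a ubiquitin-like modifier, had 69.1, 181 and 383 CPM and 22.8, 19.3 and 49 CPM (log2 fold change -2.80 ± 0.59 (SE), adjusted p = 0.00453, edgeR), and *Ifit1*, an RNA sensor, 62.8, 142 and 249 CPM and 18.3, 12.2 and 30.9 CPM (log2 fold change -2.89 ± 0.50 (SE), adjusted p = 0.00166, edgeR). CON 3 was highest of the controls in each, but all DSS mice were below all controls. The list summed to 1234, 1857 and 3652 CPM in the controls and 725, 802 and 1335 CPM in the DSS mice, with overlap between DSS 3 and CON 1.

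The genes that rose were *Iigp1*, *Gbp2*, *Gbp5*, *Gbp6*, *Ubd* and *Cd274*, of which the first 4 are GTPases induced by interferon gamma against intracellular microbes and *Cd274* encodes PD-L1. *Iigp1* had 3.56, 5.98 and 6.51 CPM in the controls and 11.6, 14.1 and 43.7 CPM in the DSS mice (log2 fold change 2.12 ± 0.51 (SE), adjusted p = 0.00878, edgeR). *Gbp5* had 1.02, 1.33 and 1.53 CPM and 1.61, 11.1 and 24 CPM (log2 fold change 3.23 ± 0.85 (SE), adjusted p = 0.0133, edgeR), and of the 6 fits that leave out 1 mouse only that without CON 1 lost the call. *Gbp2* and *Gbp6* were 3.01-fold and 3.04-fold higher (adjusted p = 0.0326 and 0.0216, edgeR) and lost their calls in 4 and 3 of the 6 fits that leave out 1 mouse. Other GTPases of the family, *Gbp3*, *Gbp4* and *Gbp7* to *Gbp9*, were not called. *Ifng* itself was too low to be tested.

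**Figure D5:**
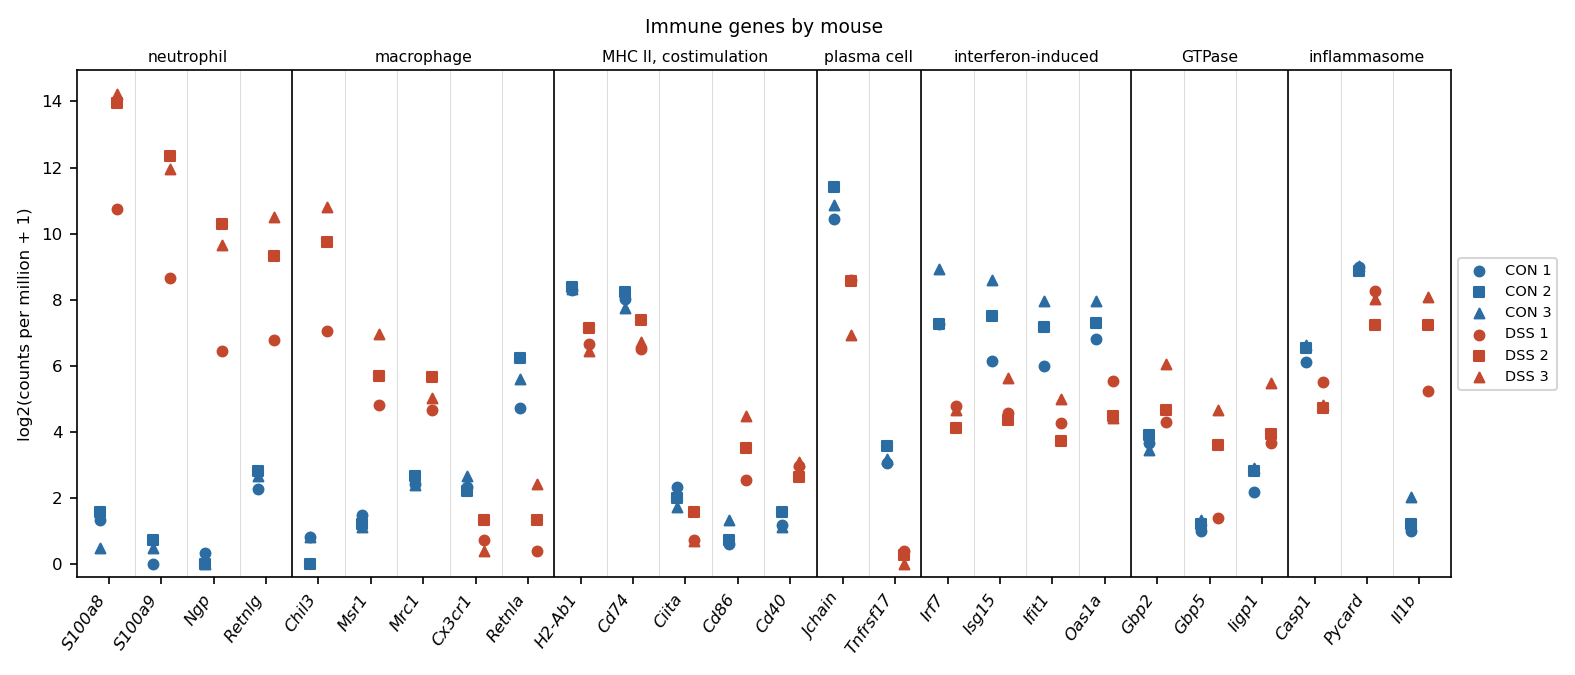
log2(CPM + 1) of 26 immune genes in each mouse, controls in blue and DSS mice in red, with circles, squares and triangles for mice 1, 2 and 3 of each group. Neutrophil genes lie low in the controls and high in the DSS mice, while MHC class II, plasma cell and most interferon-induced genes lie lower in the DSS mice.

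Further genes were named for their P or their level over all genes. *Mt1*, a metallothionein that binds zinc and copper, had 332, 216 and 320.4 CPM in the controls and 5041, 6258 and 6749 CPM in the DSS mice (log2 fold change 4.38 ± 0.29 (SE), adjusted p = 1.62e-05, edgeR). Its neighbour *Mt2* had 59.5, 36.2 and 41.4 CPM and 2457, 3299 and 3506 CPM (log2 fold change 6.07 ± 0.31 (SE), adjusted p = 5.47e-06, edgeR). Genes named for their P were taken from those with a large fold whose groups do not overlap, so their separation was set by the naming rule. *Serpina3n*, an acute-phase antiprotease, was 69.6-fold higher and *Cp* (ceruloplasmin, a copper-carrying ferroxidase) 28.8-fold higher (adjusted p = 5.47e-06 and 7.15e-06, edgeR). *Fth1* (ferritin heavy chain), one of the most counted genes, had 4939, 4014 and 2564 CPM and 3397, 15765 and 30997 CPM (log2 fold change 2.12 ± 0.62 (SE), adjusted p = 0.0206, edgeR), with DSS 1 inside the range of the controls, and its call was lost without CON 2, CON 3 or DSS 3. *Pde4b*, a phosphodiesterase that breaks down cyclic AMP, and *Sphk1*, which makes sphingosine 1-phosphate, were 35.5-fold and at least 67.8-fold higher (adjusted p = 6.96e-06 and 9.21e-06, edgeR).

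On the lower side, *Cdkn2b*, a cell cycle inhibitor that TGF-beta induces, fell from 30.7, 30.9 and 34.5 CPM to 4.18, 3.04 and 1.87 CPM (log2 fold change -3.39 ± 0.28 (SE), adjusted p = 4.73e-05, edgeR). *Ramp1*, a subunit of the CGRP receptor, was 6.84-fold lower, and *Mia*, a secreted protein, at least 14-fold lower (adjusted p = 5.08e-05 and 4.34e-05, edgeR). These genes too were named for their P, from genes whose groups do not overlap.

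Tissue composition and handling were checked with further lists. The defining pancreatic genes *Prss2*, *Cpa1*, *Ctrb1*, *Cela3b* and *Pnlip* had at most 5 counts in any of the 6 mice. They passed the filter on low counts only through the EA mice and could hardly be called here. The share of this list is therefore not comparable with the 19.5% of all genes that fell. Of 20 genes of that list tested (22 listed), 4 fell and 0 rose (2 fell without CON 2 or DSS 2). These 4, *Sycn*, *Clps*, *Spink1* and *Cela1*, stood at 118 CPM or more in every control. *Sycn*, for which the controls had 1293, 1808 and 508 CPM, was at 65.3, 24.3 and 8.11 CPM in the DSS mice (log2 fold change -5.21 ± 0.86 (SE), adjusted p = 0.00132, edgeR), and *Clps* was 66.6-fold lower (adjusted p = 0.00452, edgeR). The calls of *Spink1* and *Cela1* were lost in 3 and 4 of the 6 fits that leave out 1 mouse. Of 15 immediate early and heat shock genes tested, which respond to handling, 7 rose and 0 fell (1 fell without DSS 2). *Egr1* and *Dusp1* were 8.08-fold and 8.94-fold higher (adjusted p = 0.000429 and 0.00135, edgeR), while *Fos*, *Jun* and the heat shock gene *Hspa1a* were not called. Of 9 Hox genes tested, which mark position along the gut, 1 fell, *Hoxb7* (2 without CON 2, CON 3 or DSS 1, and 1 rose without DSS 1 or DSS 3). That is 11.1%, where 19.5% of all genes fell. *Hoxb13*, the most posterior, was not called, at 206, 252 and 50.2 CPM and 96.5, 78.4 and 52.7 CPM, except without CON 3 (log2 fold change -1.62, adjusted p = 0.00392, edgeR). Whether the groups were sampled at the same position was not tested beyond these values.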

How the data were processed

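Colon RNA of 3 mice per group (control, DSS, and DSS with EA) was made into full-length cDNA and sequenced on an Oxford Nanopore instrument. The values deposited by the authors are read counts per gene, raw and not normalized. The submitters' processing notes name the genome build mm10, while the aligner, counter, annotation and strand setting are not given in the sources used here, so that reads of overlapping or antisense genes cannot be told apart. The table had 27733 lines, of which 14 without counts were skipped, and 27719 genes were used. No value column was left without a sample. All positions were matched by gene identifier to a GRCm38 annotation.

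Counts were scaled by TMM and filtered with filterByExpr, and 12566 genes were fitted in 1 quasi-likelihood model over all 9 libraries (edgeR 4.0.16, limma 3.58.1, R 4.3.3; tables and figures with Python 3.11.15, pandas 2.3.3, numpy 2.4.6 and matplotlib 3.10.9), with the contrast of DSS against control. A call is a Benjamini-Hochberg adjusted p under 0.05 over all genes tested, SE is the log2 fold change divided by the root of F, and a stricter rule asked for a log2 fold change beyond 2.5 with P under 0.01, the study's thresholds. Counts of 3 or fewer per library were taken as the floor, and this floor covers counting error only. The script was tested on simulated data, with fewer genes changed than were called here. Of genes changed there by 1, 2 and 3 on the log2 scale, 4.5%, 83.6% and 97% were called. A gene that was not called is therefore not shown to be unchanged. Alternatives were DESeq2 1.42.0, other scalings and filters, the 6 libraries alone, a replicate block, another prior count, a test against a minimum fold, and leaving out each mouse.

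The gene lists and the comparison were chosen with earlier results of these data known. Genes named are the defining genes of each list, and up to 4 further called members of smallest P in the list's main direction and 3 in the other. Over all genes with a symbol, the 10 of smallest P in each direction were taken among those past the stricter rule whose groups do not overlap. The 10 of highest level in each direction were taken among the genes called. Genes outside this rule (*Arg1*, *Ccl28*, *Cd274*, *Csf1*, *Cxcl3*, *Flna*, *Gbp3*, *Gbp4*, *Gbp7* to *Gbp9*, *Ifng*, *Nlrp6*, *Pigr* and *Ubd*) were named after their values were seen. Some genes that the rule gives are not reported here.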

Additional observations from a re-analysis of the deposited data

How the results depend on the processing

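Against a minimum log2 fold change of 1 (glmTreat), 1192 genes were called higher and 771 lower, and the list genes called were 22 higher and 56 lower in the epithelium, 11 lower in the stroma, 9 higher and 32 lower in metabolism and 16 lower among immune genes. That test asks more of each gene by construction. Genes past the study's thresholds, 832 higher and 448 lower, numbered 1296 and 675 by DESeq2, 1514 and 779 with no filter, and 545 and 244 with a mean of at least 20 counts. DESeq2 was run without the filter on low counts, so it and the fit with no filter took in more genes, and the last setting fewer. How much of the DESeq2 difference came from the genes taken in and how much from the method was not tested. Metabolic genes called higher, 30, numbered 19 with no filter and 17 in a fit of the 6 libraries alone, and the cause was not tested.

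Leaving out 1 mouse at a time gave 2171 to 3266 genes called higher and 1919 to 3134 lower, and 800 to 1135 and 449 to 754 past the study's thresholds. The ranges of list genes called were 30 to 45 higher and 75 to 133 lower in the epithelium, 106 to 119 and 15 to 25 in the stroma, 15 to 31 and 86 to 193 in metabolism, and 115 to 136 and 31 to 43 among immune genes. The highest count past the study's thresholds on the lower side, 754, came without DSS 1. Of the 300 named genes that were called, 243 kept the call without any 1 mouse and 57 lost it at least once. *Reg3g* reversed, its log2 fold change ranging from -2.97 without DSS 1 to 5.10 without CON 3.

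With the replicate number as a block, 4543 genes were called, of which 4487 were among the 5144 above, and 17 metabolic genes were called higher. Mice with the same number did not deviate together (correlations of their deviations from the group means of -0.1, -0.003 and 0.012), so the numbers were not taken as pairs. Scaling by RLE, upper quartile or library totals and a prior count of 2 kept each of the counts in the paragraphs above within 1.5 times its value. DESeq2, run without the filter on low counts, gave a median log2 fold change of 0.107 over its genes. In the edgeR fit with no filter the median was 0.0867. In the fit of the 6 libraries alone, 4122 genes were called in either direction, against 5144 in the main fit, and 4081 were shared in the same direction. Of the 300 named genes that were called, 267 kept the call there and 25 lost it. The rest were among the 18 of 350 named genes that did not pass the filter on low counts without the EA mice. Each group holds 3 mice, and genes near the counting floor limit what could be seen, above all those of lymphocytes, tuft cells and stem cells.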
